A study of Mus musculus with 24 samples.

Results

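Transcripts of 6 genes that mark neutrophils, S100a8, S100a9, Mmp8, Trem1, Csf3r and Cxcr2, were followed across whole mouse pancreas with and without caerulein-induced pancreatitis. They were taken by name from a table of 36806 genes, 1 line per Ensembl gene, and each of the 6 was found once. Neutrophils are short-lived granulocytes that leave the blood early in acute inflammation, and in the pancreas injured by caerulein they are among the first cells to enter. They are made in bone marrow under the growth factor G-CSF, are drawn into tissue by CXC chemokines, and arrive with preformed granules of proteases and antimicrobial proteins. Within the 6, Csf3r encodes the receptor for G-CSF and Cxcr2 the receptor for the neutrophil-attracting chemokines. Trem1 encodes a surface receptor that amplifies inflammatory signals, Mmp8 the neutrophil collagenase, and S100a8 and S100a9 the 2 subunits of calprotectin, an abundant calcium- and zinc-binding protein of the neutrophil cytosol. Monocytes also express S100a8, S100a9, Trem1 and Csf3r, so none of these 4 is exclusive to neutrophils.

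Polyadenylated RNA was sequenced from pancreas of C57BL mice with 1 intact copy of Nr5a2 (+/-, called HET) and of C57BL mice with 2 (+/+, called WT). Nr5a2 encodes a nuclear receptor of acinar cells, the enzyme-secreting cells of the pancreas. The labels name no promoter or cell type for its loss. Each genotype had a group given saline and 3 groups given 7 hourly injections of caerulein at 50 ug/kg, a cholecystokinin analog. Pancreas was taken 8, 24 or 48 h after injections began. There were 8 groups: HET saline, WT saline, HET 8 h, WT 8 h, HET 24 h, WT 24 h, HET 48 h and WT 48 h, with 3 animals and 3 libraries each. The sources used here give no age, sex or killing time of saline animals.

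The unit is FPKM as the authors deposited it, that is, a gene's fragments divided by transcript length and library size. FPKM summed to 217205 to 1400108 per library, and the lowest steps in the values put the depth at about 3100000 to 48600000 fragments, with HET saline replicate 1 the shallowest and HET 48 h replicate 3 the deepest. Nr5a2 itself ranged over 8.01 to 9.09 FPKM in HET saline against 9.26 to 12.6 in WT saline, and over 1.88 to 2.15 in HET against 2.25 to 3.2 in WT at 8 h, while the genotypes overlapped at 24 and 48 h. Of 44 listed acinar enzyme and secretory genes 42 were in the table, and they summed to at least 9730 FPKM in each library. Saline and 24 h libraries were made under an earlier library guide with 10 cycles of PCR, and 8 h and 48 h libraries under a v2 guide with 8 cycles; the labels do not say which guide WT saline replicate 3 was made under. A comparison of 8 or 48 h with saline, or of 24 with 8 h, therefore crosses guides, and guide and time cannot be told apart in it. In bulk tissue, fewer neutrophils and less RNA per neutrophil cannot be told apart either.

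A gene is called higher or lower where limma, fitted to log2(FPKM + 1) of all 24 libraries, gave a Benjamini-Hochberg adjusted p of at most 0.05 over all genes of that comparison. Fold changes are on that log2 scale with their standard error, and the added 1 understates changes of genes at or below a few FPKM. All 6 markers were among the 12871 genes that reached 1 FPKM in 3 libraries or more and were tested. However, 3 of them entered mainly through HET libraries, and Trem1 only through them. Trem1 reached 1 FPKM in 4 libraries, all HET, Cxcr2 in 4 HET libraries and 1 WT library, and Mmp8 in 6 HET and 2 WT libraries. S100a8, S100a9 and Csf3r reached it in 22, 21 and 17 of 24. Trem1, Cxcr2 and Mmp8 would not have been tested on WT libraries alone, which limits their calls of HET over WT. All of the p-values measure the spread between animals, of which each group had 3.

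In the values that follow, S100a8 and S100a9 varied together across libraries, and Mmp8 and Trem1 had their highest group means at 8 h. The upstream sequences of these 4 genes are given because they form these 2 pairs. Each is the 300 bases around the annotated start in RefSeq's GRCm38.p6, a different build from the mm9 of the expression values, written in the direction of transcription. S100a8 is at chr3:90668821-90669120 on the plus strand, S100a9 at chr3:90695672-90695971 on the minus strand, Mmp8 at chr9:7558179-7558478 on the plus strand and Trem1 at chr17:48232489-48232788 on the plus strand. Capitals mark matches on either strand to TTGCNNAA, a letter pattern of the myeloid factors C/EBP, or to AGGAAGT, a pattern of PU.1.
S100a8: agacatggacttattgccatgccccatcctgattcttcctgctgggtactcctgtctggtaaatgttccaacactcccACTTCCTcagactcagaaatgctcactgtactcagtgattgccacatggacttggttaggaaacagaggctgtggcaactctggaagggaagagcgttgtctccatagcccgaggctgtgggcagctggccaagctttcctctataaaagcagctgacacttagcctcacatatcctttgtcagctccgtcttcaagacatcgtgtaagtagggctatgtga
S100a9: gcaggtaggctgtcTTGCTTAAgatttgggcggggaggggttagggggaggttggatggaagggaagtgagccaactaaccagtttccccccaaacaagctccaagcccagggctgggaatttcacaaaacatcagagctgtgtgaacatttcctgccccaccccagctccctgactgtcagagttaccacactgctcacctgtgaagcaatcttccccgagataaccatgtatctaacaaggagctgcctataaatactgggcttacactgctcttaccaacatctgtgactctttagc
Mmp8: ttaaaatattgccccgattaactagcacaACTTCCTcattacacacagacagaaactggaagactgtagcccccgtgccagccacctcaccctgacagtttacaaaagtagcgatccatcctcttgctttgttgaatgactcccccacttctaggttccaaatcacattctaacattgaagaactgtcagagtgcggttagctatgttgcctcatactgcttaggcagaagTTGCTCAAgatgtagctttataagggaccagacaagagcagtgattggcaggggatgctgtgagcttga
Trem1: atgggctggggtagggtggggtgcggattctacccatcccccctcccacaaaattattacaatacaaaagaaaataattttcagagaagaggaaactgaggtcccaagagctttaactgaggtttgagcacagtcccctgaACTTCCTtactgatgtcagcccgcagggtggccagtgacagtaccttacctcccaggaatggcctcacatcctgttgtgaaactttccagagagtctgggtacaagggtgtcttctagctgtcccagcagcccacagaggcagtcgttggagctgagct
The first base of the match lies, counted from the annotated start, at -172 in S100a8 (PU.1), -236 in S100a9 (C/EBP), -19 and -221 in Mmp8 (C/EBP and PU.1) and -109 in Trem1 (PU.1), and no matches overlap. Of 32851 promoters of the same length, 10.8% held the C/EBP letters and 9.35% the PU.1 letters. TGANTCA (AP-1), CAAGGNCA (NR5A2) and GGGANTTCC (NF-kappaB) were searched for too and were found in none of the 6 windows, against 7.81%, 6.71% and 1.68% of all promoters. Csf3r and Cxcr2 held none of the 5 patterns. A match is a description of letters and not a site of binding.

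Mmp8 and Trem1 were higher in HET than in WT pancreas at 8 h. The granule protease gene Mmp8 measured 3.25, 4.28 and 2.85 FPKM in HET pancreas 8 h after caerulein, against 1.23, 1.25 and 0.538 FPKM in WT at 8 h. Every HET animal was above every WT animal. The difference was 1.16 ± 0.17 on the log2 scale (adjusted p = 0.00356, limma), and the mean FPKM was 3.46 ± 0.738 in HET and 1.01 ± 0.405 in WT (SD, n = 3 each), a ratio of 3.44. The values rest on about 116, 176 and 94 fragments in HET and 52, 38 and 15 in WT, estimated from the steps in the FPKM.

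The surface receptor Trem1 measured 1.87, 1.85 and 2.05 FPKM in HET at 8 h, against 0.398, 0.681 and 0.172 FPKM in WT at 8 h. The groups did not overlap, and the HET animals averaged 1.92 ± 0.11 FPKM against 0.417 ± 0.255 FPKM in WT (SD, n = 3 each). The difference was 1.06 ± 0.20 on the log2 scale (adjusted p = 0.0243, limma). Mmp8 and Trem1 were 2 of the 6 markers called higher in HET at 8 h, where 0.171% of 12860 genes, or 22, were called higher. With so few calls, each is less secure against noise shared within libraries. Trem1 entered the test only through HET libraries, with 1 FPKM or more in 4, all HET. Mmp8, with 1 FPKM or more in 6 HET and 2 WT libraries, would not have entered on WT libraries alone. The calls of HET over WT in both genes at 8 h, at 24 h and in the mean carry that limit. The call of Trem1 was lost without any 1 of HET replicates 1, 2 and 3 and WT replicates 1 and 3 (adjusted p = 0.0788 to 0.201), that of Mmp8 in none of the 24 fits without 1 library. Both were lost with a pseudocount of 0.1 (adjusted p = 0.553 for Mmp8 and 0.699 for Trem1), Trem1 also with libraries scaled to their total without enzyme transcripts (0.96, adjusted p = 0.178), and both with a spread estimated from the 6 libraries of the comparison only (adjusted p = 0.185 and 0.181).

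Calprotectin and the 2 receptors for G-CSF and chemokines were not called at 8 h, although their groups did not overlap. S100a8 was at 24.2, 23.7 and 32.7 FPKM in HET and 6.18, 7.04 and 3.41 FPKM in WT, a difference of 2.12 ± 1.07 (log2, adjusted p = 0.911, limma). S100a9 was at 15.6, 16 and 26.2 FPKM in HET and 8.06, 8.63 and 2.35 FPKM in WT. Cxcr2 was at 0.423, 0.57 and 0.698 FPKM in HET and 0.226, 0.295 and 0.12 FPKM in WT. In these, too, the lowest HET animal was above the highest WT animal. Csf3r, at 1.8, 1.82 and 2.14 FPKM in HET and 1.36, 1.3 and 0.567 FPKM in WT, had the smallest ratio of means of the 6, at 1.78. All 6 markers thus had non-overlapping groups with HET higher, as did 8.75% of all genes. The log2 SD of S100a8 was 0.251 in HET and 0.46 in WT at 8 h, but 0.78 to 2.22 in the other groups. All groups enter its pooled spread. With a spread estimated from the 6 libraries of the comparison only, S100a8 (adjusted p = 0.105, limma) and S100a9 (adjusted p = 0.352) were not called either. Nor were Mmp8 (adjusted p = 0.185) and Trem1 (adjusted p = 0.181), so the split between called and uncalled markers at 8 h depends on the pooled spread.

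**Figure D1:**
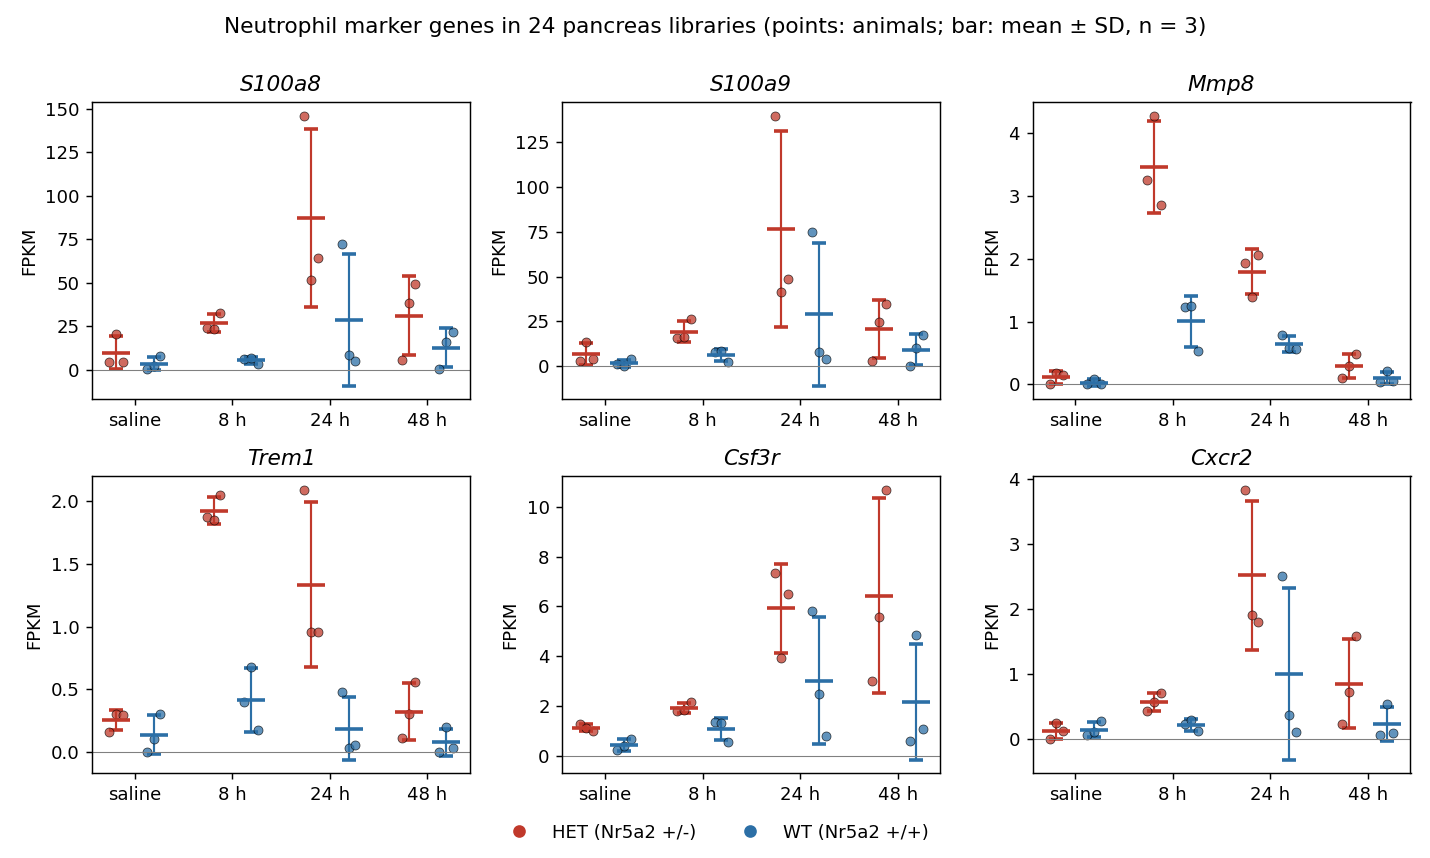
FPKM of the 6 neutrophil marker genes in each library (points), with the mean and SD of each group of 3 animals, by condition on the x axis and with HET left of WT. At 8 h the HET animals lie above the WT animals for all 6 genes; at 24 h WT replicate 1 lies with the HET animals for S100a8, S100a9, Csf3r and Cxcr2.

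At 24 h Mmp8 and Trem1 were again the 2 of 6 called higher in HET, against 3.5% of 12855 genes. Mmp8 measured 1.94, 1.39 and 2.06 FPKM in HET, against 0.793, 0.585 and 0.565 FPKM in WT. Trem1 measured 2.09, 0.958 and 0.955 FPKM in HET, against 0.475, 0.0311 and 0.0566 FPKM in WT. These were also the only 2 of the 6 whose groups did not overlap with HET higher, against 13% of all genes. The differences were 0.76 ± 0.17 for Mmp8 (adjusted p = 0.0104, limma) and 0.96 ± 0.20 for Trem1 (adjusted p = 0.00716). HET replicate 1 bears on both: without it, neither was called (adjusted p = 0.0543 for Mmp8 and 0.0528 for Trem1, with differences of 0.72 and 0.74). Neither was called with a spread estimated from those 6 libraries only (adjusted p = 0.0681 for Mmp8 and 0.107 for Trem1), and a pseudocount of 0.1 ended the call of Mmp8 (adjusted p = 0.12).

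The other 4 had one WT animal among the HET values at 24 h. S100a8 measured 146, 51.8 and 64.1 FPKM in HET, against 72.3, 8.81 and 5.04 FPKM in WT. S100a9 measured 140, 41.4 and 48.8 FPKM in HET, against 75, 7.67 and 4.11 FPKM in WT. WT replicate 1 stood far above the other 2 WT animals in each case and within the range of the HET animals. The same animal led its group for Cxcr2, at 2.51 FPKM against 0.372 and 0.105 in the other WT animals, with 3.83, 1.91 and 1.8 FPKM in HET. For Csf3r it was at 5.81 FPKM against 2.47 and 0.774, with 7.35, 3.92 and 6.49 FPKM in HET. In that animal 6 genes of all leukocytes summed to 306 FPKM, against 168 and 111 FPKM in the other WT animals, and 11 lymphocyte genes to 72.9 FPKM, the highest of the 24 libraries, against 27.4 and 2.5 FPKM. The part of other leukocytes in its marker values was not tested. Cxcr2 differed by 0.96 ± 0.33 (adjusted p = 0.0906, limma) and, without WT replicate 1, by 1.47 (adjusted p = 0.0055). S100a8 (2.29 ± 1.07, adjusted p = 0.236), S100a9 (2.16 ± 1.15, adjusted p = 0.303) and Csf3r (0.96 ± 0.46, adjusted p = 0.238) were not called, with or without that animal.

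None of the 6 was called at 48 h, where 5.84% of 12866 genes were called higher in HET, and 1 of the 6 had an unadjusted p under 0.05 (limma). The animals were widely spread in both genotypes. S100a8 was at 5.78, 38.5 and 49.2 FPKM in HET and at 0.388, 16.1 and 21.9 FPKM in WT. S100a9 was at 2.62, 24.9 and 34.6 FPKM in HET and 0, 10.4 and 17.2 FPKM in WT, where a count of 0 allows up to 0.714 FPKM in that library (3 fragments, counting error only). Replicate 1 was the low animal in both genotypes. Csf3r came closest, at 3.01, 5.58 and 10.7 FPKM in HET and 0.594, 4.85 and 1.06 FPKM in WT (1.34 ± 0.46, adjusted p = 0.0615, limma). WT replicate 2, at 4.85 FPKM, was within the HET range, and without it Csf3r differed by 1.90 (adjusted p = 0.00534). It was also called without HET 48 h replicate 1 (1.71, adjusted p = 0.0257) and without WT 24 h replicate 1 or 3 (adjusted p = 0.0376 and 0.038). Mmp8 was at 0.105, 0.289 and 0.487 FPKM in HET and 0.0327, 0.219 and 0.0586 FPKM in WT. Trem1 was at 0.111, 0.301 and 0.557 FPKM in HET and 0, 0.198 and 0.0352 FPKM in WT, and Cxcr2 at 0.233, 0.723 and 1.58 FPKM in HET and 0.052, 0.533 and 0.0932 FPKM in WT.

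In saline-treated pancreas none of the 6 was called between genotypes, against 1.15% of 12855 genes called higher in HET, and 0 had an unadjusted p under 0.05 (limma). Csf3r was the 1 marker whose groups did not overlap, at 1.26, 1.12 and 0.99 FPKM in HET and 0.215, 0.403 and 0.688 FPKM in WT, as in 8% of all genes (0.58 ± 0.46, adjusted p = 0.513, limma). S100a8 was at 4.8, 20.9 and 4.38 FPKM in HET and 0.812, 2.11 and 8.07 FPKM in WT, so that calprotectin transcript was detected without caerulein in both genotypes. S100a9 was at 2.94, 13.7 and 3.76 FPKM in HET and 0.995, 0 and 3.71 FPKM in WT. Mmp8, Trem1 and Cxcr2 were each at or below 0.306 FPKM in all 6 saline libraries, which at this depth is 5 fragments or fewer. Over the 4 conditions together, the mean genotype difference was called for 4 of the 6 against 10.2% of 12845 genes: Mmp8 (0.56 ± 0.08, adjusted p = 0.000175), Trem1 (0.61 ± 0.10, adjusted p = 0.000355), Csf3r (0.85 ± 0.23, adjusted p = 0.0135) and S100a8 (1.8 ± 0.54, adjusted p = 0.0262, limma). S100a9 (1.67 ± 0.57, adjusted p = 0.0509) and Cxcr2 (0.46 ± 0.16, adjusted p = 0.0562) were not. The call of S100a8 was lost without HET 48 h replicate 3 (adjusted p = 0.0525).

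**Figure D2:**
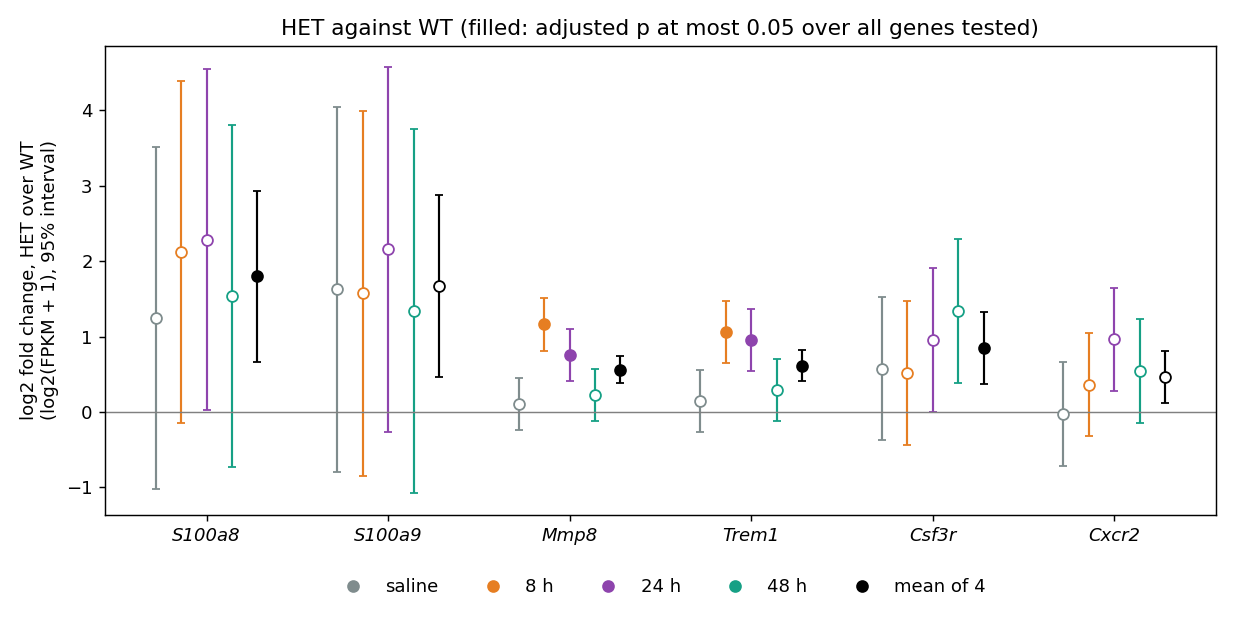
Log2 fold change of HET over WT on log2(FPKM + 1), with 95% intervals, for each marker in saline, at 8, 24 and 48 h and as the mean of the 4 conditions. Filled points are called over all genes tested: Mmp8 and Trem1 at 8 h and 24 h and 4 of 6 markers in the mean, while the S100a8 and S100a9 intervals in single conditions span more than 4 log2 units.

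By group mean, the markers did not peak together after caerulein. Mmp8 and Trem1 were highest at 8 h in both genotypes, and S100a8, S100a9 and Cxcr2 at 24 h in both. The 8 and 24 h libraries were made under different guides, so guide and time cannot be told apart in this order. At 24 against 8 h, Trem1 was called in neither genotype (adjusted p = 0.14 in HET and 0.28 in WT, limma), and Mmp8 not in WT (adjusted p = 0.189). With libraries scaled to their total without enzyme transcripts, Mmp8 in both genotypes and Trem1 in HET were higher at 24 h. Trem1 in WT stayed lower. In WT the 24 h peak rests on WT 24 h replicate 1 for S100a8 and S100a9. Without that animal the 24 h means were 6.93 FPKM for S100a8 and 5.89 FPKM for S100a9, below the 48 h means of 12.8 and 9.2 FPKM. For Csf3r, too, the WT 24 h mean without it, 1.62 FPKM, was below the 48 h mean of 2.17 FPKM. Cxcr2 was at 2.51 FPKM in that animal and at 0.372 and 0.105 FPKM in the other WT 24 h animals. Those lie on both sides of its WT means of 0.214 FPKM at 8 h and 0.226 FPKM at 48 h. Mmp8 at 24 h stood at 51.9% of its 8 h mean in HET and at 64.4% in WT, and at 48 h at 8.49% and 10.3%. S100a8 at 8 h stood at 30.8% of its 24 h mean in HET and at 19.3% in WT. Csf3r was at its highest mean at 48 h in HET, but at 24 h without HET 24 h replicate 2 or HET 48 h replicate 3, and at 71.8% of its 24 h mean at 48 h in WT. By group mean, Mmp8 was highest in HET 8 h, HET 24 h and WT 8 h, with the first 2 apart in range and WT 8 h and WT 24 h overlapping, whereas S100a8 was highest in HET 24 h, apart from the next, and then in HET 48 h, WT 24 h and HET 8 h, which overlapped. For Csf3r the 4 highest groups overlapped neighbour by neighbour.

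**Figure D3:**
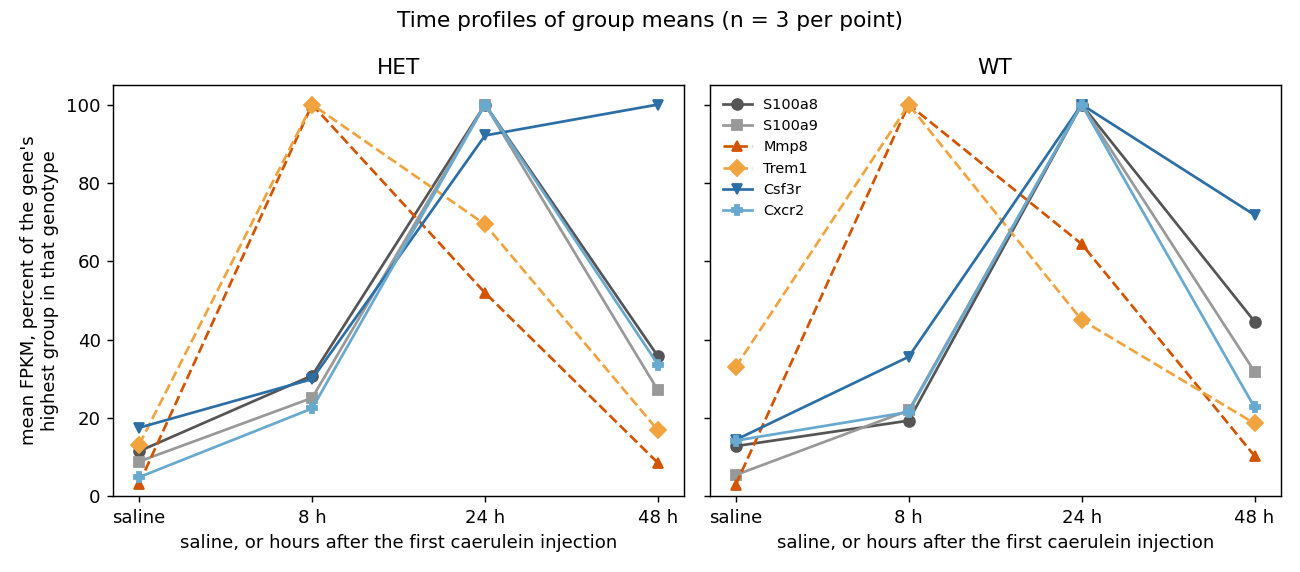
Mean FPKM of each marker as a percent of its highest group within HET (left) and WT (right), over saline and 8, 24 and 48 h after the first injection, n = 3 per point. By group mean, Mmp8 and Trem1 (dashed) peak at 8 h in both genotypes, and S100a8, S100a9 and Cxcr2 at 24 h. In WT the 24 h peak is through replicate 1 alone for S100a8 and S100a9 and mainly through it for Cxcr2. Csf3r at 48 h is at 100% in HET and 71.8% in WT. The 8 and 24 h libraries were made under different library guides, so guide and time cannot be told apart.

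Against saline, within one library guide, all 6 markers were called higher at 24 h in HET, where 23.9% of 12848 genes were. S100a8 changed by 3.18 ± 1.07 (adjusted p = 0.0236, limma) and S100a9 by 3.36 ± 1.15 (adjusted p = 0.0247). Cxcr2 changed by 1.61 ± 0.33 (adjusted p = 0.000597), Csf3r by 1.67 ± 0.46 (adjusted p = 0.00591), Mmp8 by 1.33 ± 0.17 (adjusted p = 4.06e-06) and Trem1 by 0.86 ± 0.20 (adjusted p = 0.00148). No HET 24 h animal fell within the HET saline range for any of the 6, as held for 27.6% of genes. Cxcr2 reached 1 FPKM in 3 HET 24 h libraries and in 5 of 24 in all. Without that group it would not have been tested, which limits its calls at 24 h against saline and against 8 h. The calls of S100a8 and S100a9 were lost without HET 24 h replicate 1, and without HET saline replicate 1 or 3 (adjusted p = 0.0672 to 0.0965), and that of S100a9 with a pseudocount of 0.1 (adjusted p = 0.0956). In WT, Mmp8 (0.68 ± 0.17, adjusted p = 0.00329) and Csf3r (1.29 ± 0.46, adjusted p = 0.0311) were called, 2 of 6 against 20.5% of 12850 genes, and that of Csf3r was lost without WT 24 h replicate 1 (0.80, adjusted p = 0.195), WT 24 h replicate 2, or WT saline replicate 1 or 2 (adjusted p = 0.0645 to 0.0906). Whether the change from saline to 24 h differed between the genotypes was tested directly. The interaction was called for none of the 6, against 2.3% of 12845 genes, with 3 of the 6 at an unadjusted p under 0.05 (limma). It was 0.65 ± 0.24 for Mmp8 (adjusted p = 0.141), 0.81 ± 0.28 for Trem1 (adjusted p = 0.119) and 0.99 ± 0.46 for Cxcr2 (adjusted p = 0.272).

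At 8 h against saline, across the change of guide, Mmp8 (2.0 ± 0.17, adjusted p = 5.92e-09, limma) and Trem1 (1.22 ± 0.20, adjusted p = 2.79e-05) were called higher in HET, 2 of 6 against 30.7% of 12856 genes. All 6 had non-overlapping groups there, as did 32.6% of genes. Of the 4 libraries in which Trem1 reached 1 FPKM, 3 were HET 8 h. Without them it would not have been tested, which limits its call in HET at 8 h against saline. In WT Mmp8 was called higher (0.94 ± 0.17, adjusted p = 8.58e-05, limma), 1 of 6 against 28.2% of 12857 genes. The interaction at 8 h was called for none of the 6, against 0.0233% of 12855 genes, with 2 of the 6 at an unadjusted p under 0.05, and stood at 1.05 ± 0.24 for Mmp8 (adjusted p = 0.139) and 0.91 ± 0.28 for Trem1 (adjusted p = 0.293). At 48 h against saline, Csf3r alone was called in HET (1.67 ± 0.46, adjusted p = 0.00589), 1 of 6 against 24.2% of 12856 genes, and none in WT against 11.8% of 12857 genes (0 at an unadjusted p under 0.05).

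Within the v2 guide, 48 h was compared with 8 h. In HET, Mmp8 fell by 1.78 ± 0.17 (adjusted p = 3.71e-08, limma) and Trem1 by 1.16 ± 0.20 (adjusted p = 6.17e-05), 2 of 6 against 28.6% of 12862 genes called lower. Without the HET 8 h libraries Trem1 would not have entered the test, which limits its call. Csf3r was higher by 1.21 ± 0.46 (adjusted p = 0.0317), 1 of 6 against 23.4% called higher, a call lost without any 1 of HET 8 h replicates 1, 2 and 3 and HET 48 h replicates 2 and 3 (adjusted p = 0.0548 to 0.175), with a pseudocount of 0.1 (adjusted p = 0.0604) and with no filter (adjusted p = 0.0566). In WT, Mmp8 fell by 0.85 ± 0.17 (adjusted p = 0.000299), 1 of 6 against 27.4% of 12859 genes, and the Mmp8 interaction of 48 h with 8 h was -0.94 ± 0.24 (adjusted p = 0.0667). That interaction was called for none of the 6, against 0.7% of 12859 genes, with 2 at an unadjusted p under 0.05 (limma). The comparison of 24 with 8 h was added after the values were seen and crosses the guides. In HET it called Mmp8 lower (-0.67 ± 0.17, adjusted p = 0.00242), against 27.4% of 12853 genes called lower, and Csf3r (1.21 ± 0.46, adjusted p = 0.0335) and Cxcr2 (1.13 ± 0.33, adjusted p = 0.0078) higher, against 22.4%. The call of Csf3r was lost without HET 8 h replicate 1, 2 or 3 or HET 24 h replicate 1 or 3 (adjusted p = 0.0577 to 0.108) and with no filter (adjusted p = 0.0618), and that of Cxcr2 without HET 24 h replicate 1 (adjusted p = 0.0547), where Trem1 was called lower (-0.58, adjusted p = 0.0228). A pseudocount of 0.1 ended all 3 calls (adjusted p = 0.138 for Mmp8, 0.0597 for Csf3r and 0.0526 for Cxcr2). The direction for Mmp8 turns where libraries are scaled to their total without enzyme transcripts (0.038, adjusted p = 0.885), a scaling that puts the median of all genes at 0.65. In WT it called none of the 6, against 25% of 12851 genes called higher and 28.4% called lower, and 0 had an unadjusted p under 0.05 (limma).

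Across the 24 libraries S100a8 and S100a9 gave a Pearson r of 0.975 on log2(FPKM + 1), and 0.965 after the group means were removed. Both genes lie on chromosome 3, on opposite strands. Mmp8 and Trem1 gave 0.903, and 0.57 within groups, while Mmp8 and Csf3r gave 0.335 and 0.595. Within groups Trem1 followed Cxcr2 (0.848), S100a9 (0.723), S100a8 (0.705) and Csf3r (0.703) more closely than Mmp8. Csf3r and Cxcr2, the receptors for the growth factor and the chemokines, gave 0.842, and 0.836 within groups. These are descriptions over libraries that share depth and tissue composition. Among 12414 other genes, those most like the mean profile of the 6 were Ccr1 (r = 0.931), Gpr35 (0.93), Mefv (0.929), Ltb4r1 (0.921), Slfn1 and Ifitm6 (0.914), Srgn and Slfn2 (0.913), Ifi204 (0.907) and Il1b (0.905). Ccr1 and Ltb4r1 encode chemoattractant receptors and Il1b the cytokine interleukin-1 beta. The nearest to 5 single members were Ly6c2, Plac8 and Slfn2 for S100a8 (0.897 to 0.898), Ly6c2, Ifi209 and Ifi204 for S100a9 (0.908 to 0.92), Gm16548, Has1 and Il6 for Mmp8 (0.927 to 0.95), Il1r2, Il1b and Il6 for Trem1 (0.905 to 0.92), and Slfn1, Trem3 and Pira2 for Cxcr2 (0.919 to 0.921).

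**Figure D4:**
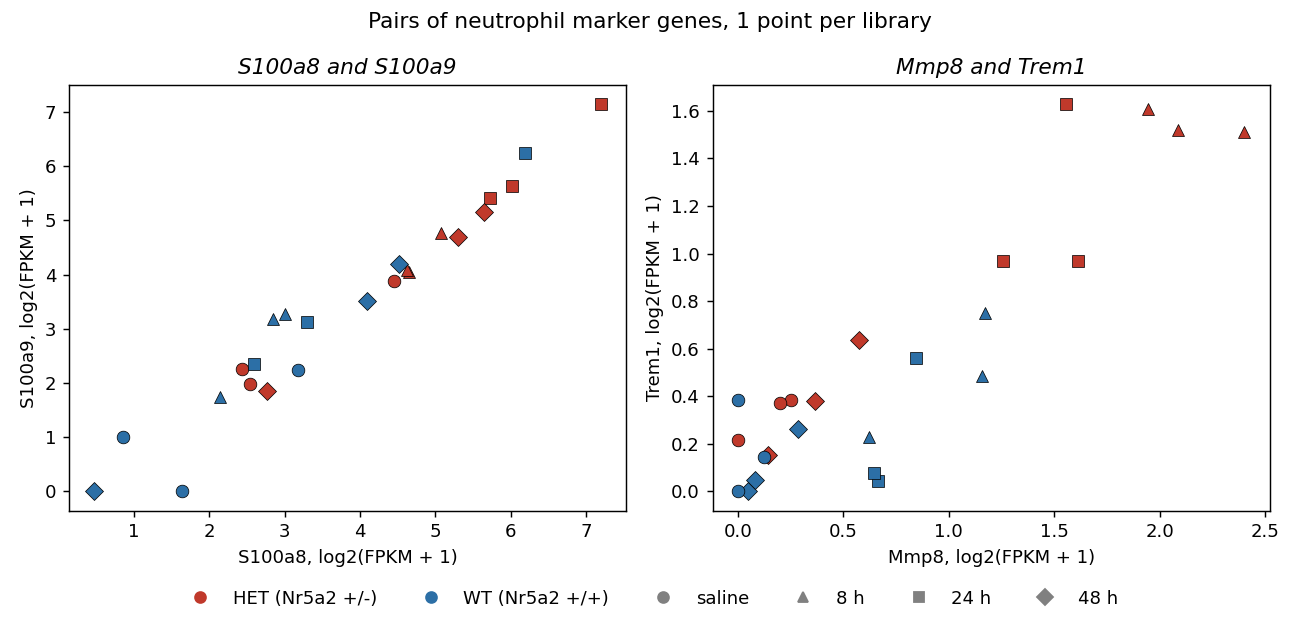
Log2(FPKM + 1) of S100a9 against S100a8 (left) and of Trem1 against Mmp8 (right), 1 point per library, with color for genotype and shape for condition. S100a8 and S100a9 lie along 1 line through all groups (r = 0.975), and the HET 8 h and HET 24 h libraries hold the highest values of Mmp8 and Trem1.

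Some ligands of CXCR2 were higher in HET as well. Of 6 ligand genes 4 were tested, and Cxcl2 and Cxcl3, which encode chemokines that recruit neutrophils, were called higher in HET at 8 h. There 0.171% of 12860 genes, or 22, were called higher, and with so few calls each is less secure. Cxcl2 ranged over 4.06 to 5.16 FPKM in HET and 0.607 to 1.43 FPKM in WT (1.53 ± 0.30, adjusted p = 0.0396, limma), and Cxcl3 over 0.815 to 1.87 FPKM in HET and 0 to 0.184 FPKM in WT (1.12 ± 0.20, adjusted p = 0.0213). Cxcl5 was called at 24 h (1.64 ± 0.44, adjusted p = 0.0304) and 48 h (1.68 ± 0.44, adjusted p = 0.0177). At those times 3.5% and 5.84% of all genes were called higher in HET. The median difference of the 4 at 8 h was 1.49, beside 0.007 over all genes tested. For Csf3r, the ligand gene Csf3 was at 0 in 16 of 24 libraries and reached 0.633 FPKM, and Socs3 and Stat3, which act downstream of the receptor, were not called between genotypes at 8, 24 or 48 h (0 at an unadjusted p under 0.05, limma).

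Of the partners and relatives of TREM1, Tyrobp encodes DAP12, the adaptor that TREM1 signals through. Tyrobp was at 38.7 to 45.6 FPKM in HET and 12.5 to 22.6 FPKM in WT at 8 h (1.15 ± 0.37, adjusted p = 0.514), and was called in saline (1.91 ± 0.37, adjusted p = 0.0115) and at 48 h (1.33 ± 0.37, adjusted p = 0.0227, limma). Trem3 (1.16 ± 0.23, adjusted p = 0.00642) and Treml2 (1.16 ± 0.24, adjusted p = 0.00796) were called higher in HET at 24 h. However, Trem3 was at 1.5 to 4.16 FPKM in HET at 24 h and at most 0.899 FPKM in every other group. It entered the test only through the group called higher, which limits that call. Among receptors of calprotectin, Cd14, a co-receptor of TLR4, was called at 24 h (1.59 ± 0.45, adjusted p = 0.0388) and 48 h (1.88 ± 0.45, adjusted p = 0.0106). Timp1, an inhibitor of matrix metalloproteinases, was called at 24 h (1.36 ± 0.40, adjusted p = 0.0458) and 48 h (1.8 ± 0.40, adjusted p = 0.00682). Called higher in HET were 1.15% of all genes in saline, 3.5% at 24 h and 5.84% at 48 h.

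Few other neutrophil genes were called in single conditions. Of 9 genes of secondary and tertiary granules 7 were tested, and Cd177 (0.93 ± 0.17, adjusted p = 0.00305, limma) and Chil1 (1.25 ± 0.36, adjusted p = 0.0409) were called higher in HET at 24 h, and none of the 7 at 8 h (2 at an unadjusted p under 0.05). Chil1 was also called in saline (2.0 ± 0.36, adjusted p = 0.00672), and Lcn2, which encodes lipocalin-2, at 48 h (2.20 ± 0.45, adjusted p = 0.00396). In WT at 8 h the 9 granule genes summed to 79.6 to 104 FPKM, where the 6 markers summed to 7.16 to 19.2 FPKM. The part of cells other than neutrophils in the granule genes was not tested. Of 18 genes of mature neutrophils 11 were tested and none was called in saline or at 8, 24 or 48 h, with 4, 7, 3 and 0 at an unadjusted p under 0.05 (limma). Over the mean of conditions 5 of the 11 were called higher, against 10.2% of 12845 genes, and the list had a median difference of 0.98 at 8 h beside 0.007 over all genes. Il1r2, a decoy receptor for interleukin-1, was the closest, at 2.17 to 3.73 FPKM in HET and 0.665 to 1.05 FPKM in WT at 8 h (adjusted p = 0.279). The primary granule genes Mpo, Elane and Ctsg were at 0 in 16, 19 and 16 of 24 libraries. Ly6g, the surface antigen by which mouse neutrophils are often sorted, was at 0 in 21 of 24 libraries and reached 1.14 FPKM in HET 24 h replicate 1. It belongs to a family of related genes, and how its reads were assigned was not tested. Of 7 subunits of the phagocyte oxidase and its partner integrin, Cyba (1.17 ± 0.33, adjusted p = 0.0251) and Ncf1 (1.38 ± 0.42, adjusted p = 0.0382) were called higher in HET at 48 h. Over the mean of conditions 6 of these 7 were, against the same 10.2% of genes. Of 9 tested genes of entry and adhesion, Ltb4r1, a leukotriene B4 receptor, was called higher in HET at 24 h (1.52 ± 0.26, adjusted p = 0.0021). C5ar1, the receptor for complement C5a (1.69 ± 0.36, adjusted p = 0.00536), and Vcam1, an endothelial adhesion molecule (1.22 ± 0.38, adjusted p = 0.0393), were called at 48 h. In WT at 24 h Ltb4r1 had a median of 0.65 and a highest value of 1.25 FPKM. It was below 1 FPKM in the other WT groups. Ltb4r1 would not have been tested on WT libraries alone, which limits its call.

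Monocyte and macrophage genes summed higher in every HET than in every WT library in saline as well as at 8 h. In saline the summed FPKM of 15 monocyte and macrophage genes was 247 to 561 in HET and 85.6 to 193 in WT, without overlap. Of the 15, 1 was called, against 1.15% of 12855 genes, and 9 had an unadjusted p under 0.05 (limma). Taken singly and not as sums, 8% of genes in saline and 8.75% at 8 h had non-overlapping groups with HET higher. The median difference of the 15 was 0.95 in saline and 0.51 at 8 h. At 8 h the summed FPKM of the 15 was 283 to 421 in HET and 133 to 241 in WT, and that of 6 genes of all leukocytes was 62.9 to 103 in HET and 27.5 to 59.1 in WT, both without overlap. At 24 h the monocyte and macrophage sum was 743 to 1170 in HET and 558 to 911 in WT, and at 48 h 902 to 1590 in HET and 292 to 974 in WT. None of the 15 was called at 8 h (5 at an unadjusted p under 0.05, limma), 1 at 24 h and 8 at 48 h. Of all genes, 0.171% were called higher at 8 h, 3.5% at 24 h and 5.84% at 48 h. Over the mean of conditions 12 of 15 monocyte and macrophage genes and 6 of 6 leukocyte genes were called higher in HET, against 10.2% of 12845 genes. Red cell and platelet genes summed to 54.6 to 83.1 FPKM in HET and 51.9 to 162 in WT at 8 h, and to 85 to 121 in HET and 86.9 to 134 in WT at 24 h, with overlap at both times. Genes of squamous epithelium, another source of S100a8 and S100a9, summed to at most 2.68 FPKM in any library. Of 8 tested lymphocyte genes and 6 tested genes of eosinophils, mast cells and basophils none was called between genotypes at 8, 24 or 48 h (0 at an unadjusted p under 0.05, limma). In saline none of them was called either, with 0 of the lymphocyte genes and 4 of the other 6 at an unadjusted p under 0.05. Their median differences in saline were 0.67 and 0.64. Of the 6 genes of all leukocytes 1 was called in saline, and 5 had an unadjusted p under 0.05 (limma). The acinar genes summed to 103000 to 111000 FPKM in HET and 79200 to 152000 FPKM in WT at 8 h. At 24 h they summed to 63500 to 77500 FPKM in HET and 167000 to 209000 FPKM in WT, and at 48 h to 9730 to 94600 FPKM in HET and 135000 to 311000 FPKM in WT. The part of other leukocytes, or of acinar content, in the marker differences was not tested.

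**Figure D5:**
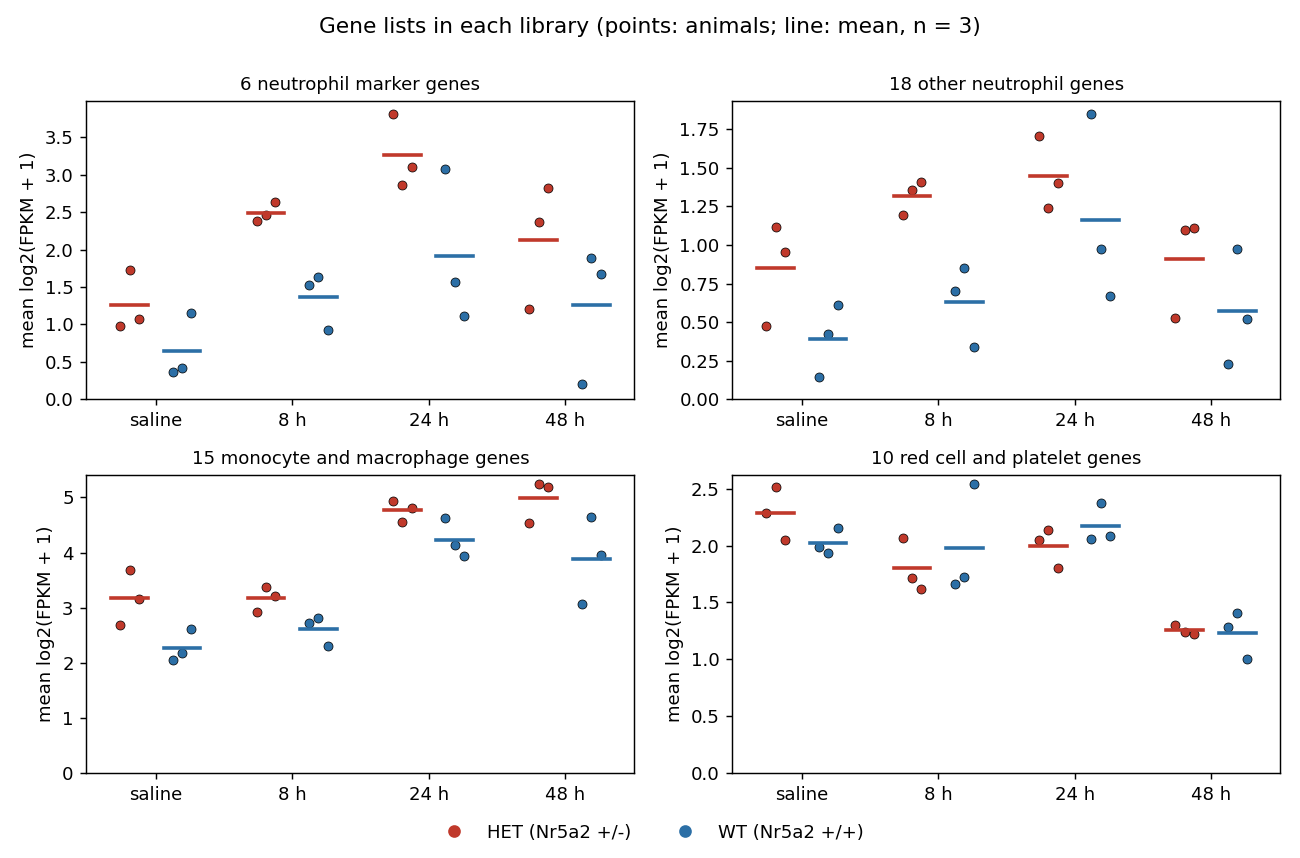
Mean log2(FPKM + 1) over the 6 neutrophil marker genes, 18 other neutrophil genes, 15 monocyte and macrophage genes and 10 red cell and platelet genes in each library (points; line, mean of 3 animals), with HET left of WT. The 3 leukocyte lists are higher in HET than in WT at 8 h without overlap, the red cell and platelet genes overlap.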

How the data were processed

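The authors deposited 1 table of FPKM for 24 libraries, and those values were used as given. The header names no unit: FPKM was taken from Cuffnorm, since values are not whole and library sums differ. Per the submitters' processing notes, the build was mm9 and the tools were CASAVA 1.8, Cufflinks 2.0.2, Cuffnorm and Bowtie, in no stated order or role. Per the labels' protocols, RNA integrity numbers were 6.6 to 9.2. Symbols matched 31840 of 36806 IDs. Each column was matched to its sample by title.

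Zeros were treated as missing where all libraries of a group were at exactly 0 and all of another at 100 FPKM or more, with neighbours of the same pattern (27 genes, none of the 6). Genes that reached 1 FPKM in 3 libraries or more were tested on log2(FPKM + 1) with limma 3.58.1 in R 4.3.3, 1 mean per group (16 residual degrees of freedom), trend and robust moderation, two-sided, with Benjamini-Hochberg adjustment over all genes of each comparison. The 16 comparisons and 2 added later used the same fit. It was tested on simulated data for HET against WT at 8 h. False calls were more frequent when noise was shared within libraries than when genes varied independently. Calls in a comparison with few calls, such as HET against WT at 8 h with 22 genes called higher, are therefore less secure. Depth was read from the lowest steps of FPKM in single-transcript genes of known length. Fragment numbers are estimates for S100a8, S100a9 and Mmp8 and only approximate for the other 3.

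The 6 markers and all lists were chosen with earlier results of these data known. Named list genes are up to 4 per list with the smallest adjusted p. The genes most like Csf3r are not reported here. Alternatives were the pseudocount, the filter, 2 scalings, the moderation, a spread from the compared libraries only, the zeros kept, and each library left out. Replicates were numbered in accession order.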

Additional observations from a re-analysis of the deposited data

How the results depend on the processing

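No paired analysis was possible because replicates carry accession-order numbers and nothing in the labels pairs animals. Depth limits Mmp8, Trem1 and Cxcr2 most, at 5 fragments or fewer in saline. With a pseudocount of 0.1 the number of markers called was 0 for HET against WT at 8 h, 1 at 24 h and 0 for HET 24 h against 8 h. With a spread from the compared libraries only, it was 0 at 8 h and 0 at 24 h between genotypes, 1 for WT 24 h against saline, 6 for HET 8 h against saline and 5 for HET 24 h against 8 h. Scaling to the total without enzymes gave 1 for HET against WT at 8 h, 1 at 48 h, 4 for WT 24 h against saline, 2 for HET 48 h against saline and 1 for WT 24 h against 8 h, and no filter gave 1 for WT 24 h against saline. That scaling moved the median of all genes by up to 0.78, in HET 24 h against saline, and by 0.11 to 0.36 between genotypes at 8 to 48 h.

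The same scaling turned the sign of uncalled S100a9 (0.46) and Cxcr2 (0.11) in WT 48 h against 8 h, S100a8 (0.72) and S100a9 (0.49) in HET 48 h against 8 h, S100a9 (0.21) and Csf3r (0.064) in the interaction at 8 h, S100a9 (0.031) in the interaction of 48 with 8 h, Mmp8 (0.16) in WT 24 h against 8 h, and Mmp8 (0.038) and Trem1 (0.25) in HET 24 h against 8 h, where Mmp8 had been called. Median-ratio scaling turned Cxcr2 in WT 48 h against 8 h (0.030). A pseudocount of 0.1 turned S100a9 in the interactions at 24 h (-0.58) and of 48 with 8 h (0.59). The cause was not tested.

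Leaving out 1 library at a time, the markers called numbered 1 to 2 between genotypes at 8 h, 0 to 3 at 24 h, 0 to 1 at 48 h and 3 to 6 in the mean. They numbered 1 to 4 for WT 24 h against saline, 4 to 6 for HET 24 h against saline, 1 to 2 for HET 48 h against saline, 2 to 3 for HET 48 h against 8 h, 0 to 2 for WT 24 h against 8 h and 2 to 3 for HET 24 h against 8 h. In the mean, S100a9 was called without HET saline replicate 1, WT saline replicate 3, WT 24 h replicate 1, HET 48 h replicate 1 or WT 48 h replicate 2 or 3, and Cxcr2 without WT 24 h replicate 1, HET 48 h replicate 1 or WT 48 h replicate 2. For WT 24 h against saline, S100a9 was called without WT saline replicate 3, WT 24 h replicate 3, HET 48 h replicate 1 or WT 48 h replicate 1 (adjusted p = 0.0313 to 0.0481, limma), and Cxcr2 without WT 24 h replicate 3. For HET 48 h against saline, Cxcr2 was called without WT 24 h replicate 1 or HET 48 h replicate 1. For WT 24 h against 8 h, an addition made after seeing the data, Mmp8 was called without WT 8 h replicate 3, and Csf3r and Cxcr2 without WT 24 h replicate 3. Some differences that were not called changed sign without 1 library. In HET against WT in saline, Cxcr2 ranged over -0.11 to 0.055. In WT 24 h against saline, Trem1 ranged over -0.12 to 0.15. In WT 48 h against saline, Trem1 ranged over -0.16 to 0.03 and Cxcr2 over -0.085 to 0.19. In WT 48 h against 8 h, S100a8 ranged over -0.38 to 1.64, S100a9 over -0.97 to 1.12, Csf3r over -0.17 to 0.77 and Cxcr2 over -0.18 to 0.10. In HET 48 h against saline, Trem1 ranged over -0.058 to 0.19. In HET 48 h against 8 h, S100a8 ranged over -0.75 to 0.69, S100a9 over -1.03 to 0.62 and Cxcr2 over -0.10 to 0.43. In the interaction at 8 h, S100a9 ranged over -0.63 to 0.53 and Csf3r over -0.25 to 0.052. In the interaction at 24 h, S100a9 ranged over -0.25 to 1.70 and Csf3r over -0.10 to 0.87. In the interaction of 48 with 8 h, S100a8 ranged over -1.86 to 0.33, S100a9 over -1.52 to 0.79 and Cxcr2 over -0.093 to 0.44.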
